A study of Cardamine hirsuta with 24 samples.

Results

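A set of 147 *Cardamine hirsuta* genes was chosen because dexamethasone (Dex) libraries had more of their reads than mock libraries in each of 3 replicates. Gene counts were scaled to counts per M gene counts of a library (CPM), and log2(CPM+1) was compared between Dex and Mock for each replicate number and averaged over 4 times. Of 29458 genes in the files, 11152 had a mean below 2 CPM and 1976 more moved by 1 log2 unit or more between Mock at 2 h and Mock at 8 h. The other 16330 genes were ranked by the smallest of their 3 replicate differences. The highest 150 were taken, and 9 identifiers described elsewhere were left out, of which 3 stood among the 150: the induced gene *CUC1* itself (rank 1), *AMT1;2* (rank 33) and *ATNRT2.1* (rank 45). The Dex minus Mock difference therefore chose the members, and every value of it below is a description without a test.

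All groups were shoot apices with young leaves of 12-day-old *C. hirsuta* Oxford seedlings carrying the transgene *RCOp::LhG4:GR; Op6::ChCUC1:V*, Mock included. In this line the *RCO* promoter, which acts at small foci of the leaf margin, drives a synthetic activator fused to a steroid receptor domain, and Dex lets that activator switch on the boundary transcription factor ChCUC1 fused to Venus. Seedlings stood in liquid medium with 10 µM Dex or 0.1% DMSO (Mock) for 2, 4, 6 or 8 h. Each of the 8 groups had 3 replicates of 20 pooled seedlings, with cotyledons, roots and mature leaves removed before RNA extraction. Seedlings without the transgene were not among the groups, so an effect of Dex itself and one of ChCUC1 cannot be told apart. In bulk tissue, more cells of a type and more RNA per cell cannot be told apart either. Whether replicates were separately grown cultures is not stated, so the p-values below measure the spread between these libraries.

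CUC transcription factors of the NAC family mark the borders between organs, where growth is slow, and in compound leaves they help to place the leaflets by shaping the flow of auxin. Young leaf tissue around these borders also matures: the epidermis lays down a cuticle of wax and cutin, walls are modified by pectin enzymes and by structural proteins, and some cells stop dividing and enlarge. Genes of these processes are found among the members, whose roles are given here as known from the *Arabidopsis thaliana* counterparts. A counterpart was printed in the study's tables for 58 of the 147 members (39.5%), against 16.2% of all genes tested. For 34 of the 58 the only source of the pair was a table of differentially expressed genes made from the same libraries, so the named members are not a neutral sample of the set. The other 89 members have an identifier only.

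The 24 libraries held between 12.9 M and 22.96 M gene counts each, with a median of 19.5 M. In each group the replicates were further apart than counting error allows (chi-square over degrees of freedom of 2.57 to 141). Libraries sharing a replicate number did not deviate together: none of the 12 Dex libraries was closest to the Mock library with its own number, and the correlations of their deviations ran from -0.59 to 0.14. Of these correlations 10 of 12 were below 0, so Dex and Mock libraries with the same number more often deviated in opposite directions. The replicate differences that define the set join libraries by that number. Of 5 shoot apex markers with a paired identifier, all 5 were detected in every library, and their summed level was 54.0 to 79.3 CPM in Dex and 39.6 to 83.1 CPM in Mock.

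Members were raised unequally in the replicates. In replicate 1 their median difference was 1.03 on the log2(CPM+1) scale, with a range of 0.31 to 2.85. In replicate 2 the median was 0.35 (0.29 to 0.69), and in replicate 3 it was 0.41 (0.29 to 1.24). Replicate 1 gave the largest of the 3 values for 137 of the 147 members, and replicate 2 gave the smallest for 98. A difference above 1 was reached by 79 members in replicate 1, by 0 in replicate 2 and by 1 in replicate 3. All 3 differences were above 0.5 for 7 members.

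**Figure D1:**
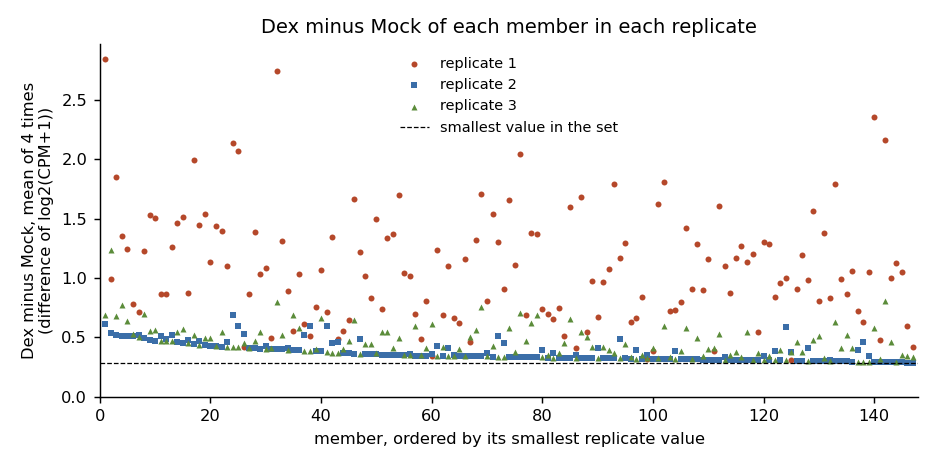
Dex minus Mock of each of the 147 members (vertical axis, difference of log2(CPM+1) averaged over 4 times), with members ordered by their smallest replicate value; symbols mark the replicates and the dashed line the smallest value in the set, 0.29. Replicate 1 stands above the others for most members, while replicates 2 and 3 lie close to the line.

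The threshold passed through a dense stretch of genes. The last 3 members, CARHR008730, CARHR065040 and CARHR105700, had smallest values of 0.2896, 0.2888 and 0.2886. The first 3 genes outside, CARHR248470, CARHR066750 (counterpart AT1G73680) and CARHR274460 (*ATNRT2.3*, a nitrate transporter by name), had 0.2885, 0.2875 and 0.2875. Genes on either side of the threshold were thus nearly equal in this value. Among all ranked genes, 28.4% had 3 differences above 0 and 17.9% had 3 below 0.

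The level of the set in each library shows where the replicate 1 difference lay. Averaged over members, log2(CPM+1) in Dex ran from 4.25 to 4.77 over the 12 libraries, and in Mock from 3.23 to 4.40. The Mock libraries of replicate 1 were low at 2 h (3.84), 4 h (3.42), and 6 h (3.23), whereas at 8 h all 3 Mock libraries stood within 3.82 to 3.85. Mock replicate 2 ranged from 3.85 to 4.18 and Mock replicate 3 from 3.84 to 4.40. Dex replicate 1 was the highest Dex library of the set at 2, 6 and 8 h. Over all ranked genes the same mean ran from 4.37 to 4.64 in Dex and from 4.23 to 4.53 in Mock.

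**Figure D2:**
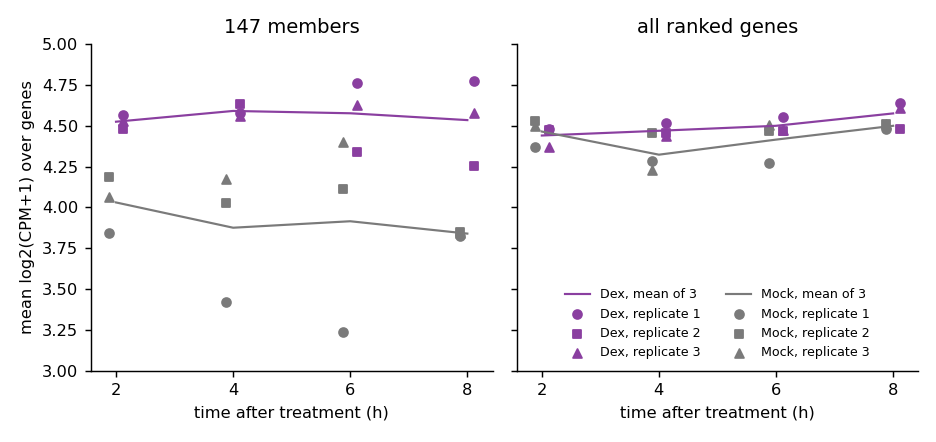
Mean log2(CPM+1) over the 147 members (left) and over all 16330 ranked genes (right) in each library by time; symbols are replicates and lines the means of 3. Among the members the 3 Mock libraries lie together at 8 h, near 3.84, and spread from 3.23 to 4.40 at 6 h, and at 6 h Mock replicate 3 lies above Dex replicate 2.

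A higher level in Dex in replicate 1 was not particular to the members: 70.0% of ranked genes were above 0 there. With library totals as the scale, the median ranked gene was 0.32 higher in Dex than in Mock in replicate 1, against -0.02 in replicate 2 and 0.06 in replicate 3. With TMM scaling, which sets the bulk of genes level between libraries, these medians became 0.03, 0.00 and 0.03. The members' medians became 0.76, 0.38 and 0.37, and 147 of 147 members stayed above 0 in each replicate. The members' lowest value in replicate 1 was then 0.02.

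Other marker lists moved with the treatment in the same libraries. Of 42 heat shock genes with a pair, none is a member, 31 fell and 3 rose in the Dex average by edgeR (called at an adjusted p under 0.05 and a fold over 1.5). Their summed level was 1562 to 4658 CPM in Dex and 3279 to 9511 CPM in Mock, and in replicate 1 it was 1562 to 3123 CPM in Dex against 5752 to 9511 CPM in Mock. Of 5 hypoxia genes, 4 fell and 0 rose, with a summed level of 40.2 to 706 CPM in Dex and 164 to 1374 CPM in Mock. Of 24 root and root hair genes tested, 14 rose and 0 fell in the Dex average. The summed level of the 25 such genes with a pair was 11.9 to 920 CPM in Dex and 4.24 to 324 CPM in Mock. This list also moved with time: 18 of the 24 fell in Mock from 2 h to 4 h and 23 in Dex from 2 h to 8 h, with 0 rising in either. Its ranges therefore span times as well as treatments. Among the root and root hair genes, the root hair regulator *RHD6* was at 0 in 11 of 24 libraries and *MRH4* in 15. Among 7 seed maturation genes tested, 3 rose and 1 fell. Members of these lists were paired mainly through tables made from these libraries, and the part of such differences in the members' values was not tested.

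Single differences between libraries mostly pointed one way. Of the 1764 pairs of Dex and Mock libraries that share time and replicate number, summed over members, 1666 (94.4%) were above 0, against 55.6% for all ranked genes. All 12 differences were above 0 for 74 members, 11 for 53, 10 for 15 and 9 for 5. At 8 h the 3 Dex libraries lay above the 3 Mock libraries without overlap for 138 members, beside 21.7% of all genes tested. This was so for 114 members at 2 h (13.6% of all genes), for 100 at 4 h (17.3%) and for 33 at 6 h (6.26%). All 12 Dex libraries lay above all 12 Mock libraries for 3 members, beside 0.0184% of all genes: CARHR166450, CARHR092320 and CARHR216820 (counterpart AT5G35740). The last pair of identifiers was singled out after their values were seen.

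The edgeR fit on all 24 libraries gives each difference relative to the bulk of genes. In the average over times the members' fold ran from 1.17 to 2.76 with a median of 1.45, and 6 members were above 2-fold. At an adjusted p under 0.05 and a fold over 1.5, 62 members were called higher, beside 4.76% of the 21689 genes tested, and nothing is read from this count because the rule used the same contrast. At single times edgeR called 0 members at 2 h (0.00461% of all genes called in either direction), 4 h, 6 h and 8 h (0% each), with 56, 68, 59 and 111 members at an unadjusted p under 0.05 beside 14%, 22.1%, 10.1% and 15.8% of all genes. DESeq2 called 2, 6, 0 and 15 members higher at these times, beside 0.171%, 0.184%, 0.00461% and 0.553% of all genes. The count in the average rested on the replicates: it was 9 without replicate 1 (18 of all genes called higher), 76 without replicate 2 (2150 of all genes) and 0 without replicate 3, where no gene at all was called.

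To read the difference in samples that did not choose the genes, the same rule was run on 3 times and the chosen genes were read at the time held out. This was added after seeing the data, and the filters on level and on Mock at 2 and 8 h still used all libraries. The chosen genes are not the set itself: 93, 81, 96 and 92 of them were members with 2, 4, 6 and 8 h held out. The reading therefore describes the rule and does not test the 147 members. Genes chosen without 2 h had a median difference of 0.36 at 2 h, against 0.04 for all ranked genes. Genes chosen without 4 h had 0.54 at 4 h, against 0.21. Genes chosen without 6 h had 0.61 at 6 h, against 0.13, and those chosen without 8 h had 0.56 at 8 h, against 0.09. All 3 replicates were above 0 at the time held out for 50.7%, 57.1%, 50% and 85.0% of the chosen genes, and for 19.0%, 29.9%, 14.9% and 30.7% of the ranked genes. The excess was uneven among replicates: at 6 h the chosen genes had a median of 1.65 in replicate 1, 0.05 in replicate 2 and 0.14 in replicate 3, and at 4 h replicate 3 (0.12) was below all ranked genes (0.20).

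**Figure D3:**
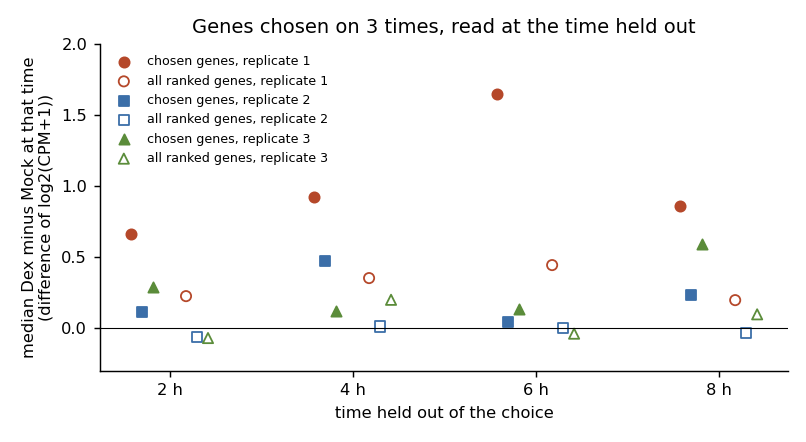
Median Dex minus Mock (difference of log2(CPM+1)) at the time held out, for the genes chosen on the other 3 times (filled) and for all ranked genes (open), by replicate. In 11 of the 12 comparisons the chosen genes lie above the ranked genes, and at 4 h in replicate 3 they lie below (0.12 against 0.20).

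The same reading by replicate was less even. Genes chosen on replicates 2 and 3 had a median of 0.99 in replicate 1 (all ranked genes 0.32), and 144 of 147 were above 0. This is 98.0% against 70.0% of ranked genes. Genes chosen on replicates 1 and 2 had 0.29 in replicate 3 (0.06), and 134 of 147 were above 0, which is 91.2% against 61.0% of ranked genes. Genes chosen on replicates 1 and 3 had 0.08 in replicate 2 (-0.02), and 98 of 146 were above 0, which is 67.1% against 44.2% of ranked genes. Of that last choice 16 genes were members, 10.96% of the choice and 10.9% of the set. The choice without replicate 1 held 135 members and that without replicate 3 held 73. The reading by replicate, too, describes the rule and does not test the 147 members.

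The member with the highest smallest value, CARHR284770, has no paired counterpart. Its CPM was 16.5 to 47.1 in Dex (median 26.1) and 2.04 to 19.3 in Mock (median 10.6), and the ranges overlapped. At 6 h the Dex values were 47.1, 16.6 and 16.5 and the Mock values 2.04, 11.2 and 17.5, so that replicate 3 was lower in Dex. CARHR069370, the second, was at 0.426 to 10.4 CPM in Dex (median 3.19) and 0.364 to 3.22 CPM in Mock (median 0.854). In Dex it held 10.4, 5.14 and 7.80 CPM at 2 h and 4.43, 0.426 and 2.06 CPM at 8 h, and it fell over that interval (log2 fold change -1.88 ± 0.61 SE, adjusted p = 0.0328 by edgeR). That call was lost without replicate 2 or 3, and without Dex replicate 1 or 3 at 2 h or Dex replicate 2 or 3 at 8 h.

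CARHR166450, paired with an uncharacterized protein (AT3G56290), kept its groups apart at every time. Its Dex values were 12.3, 12.1 and 12.9 CPM at 2 h and 28.97, 16.1 and 23.5 CPM at 8 h. In Mock it held 7.38, 8.90 and 7.21 CPM at 2 h and 7.75, 8.49 and 8.52 CPM at 8 h. The Dex libraries rose from 2 h to 8 h (log2 fold change 0.77 ± 0.24 SE, adjusted p = 0.0245 by edgeR) while the Mock means were 7.83 ± 0.93 and 8.25 ± 0.43 CPM (SD, n = 3). The rise in Dex was lost without any 1 replicate number, and without Dex replicate 1 or 2 at 2 h or Dex replicate 1 or 3 at 8 h. The difference between the 2 courses did not pass the test (0.75 ± 0.34 SE, adjusted p = 1.00 by edgeR). CARHR240950, with no counterpart, was at 28.4 to 75.95 CPM in Dex (median 54.2) and 12.7 to 53.0 CPM in Mock (median 29.8).

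Of the 19 members in any role list, 8 were in that of lipids, waxes and surface lipids, the most of any list. That list was also among the largest, with 89 paired genes tested, beside 159 for transcription factors and 107 for kinases. The 10 members with a counterpart locus but no description were in no list, so any lipid genes among them are not counted. Very long chain fatty acids, made by 3-ketoacyl-CoA synthases, feed the waxes of the cuticle. *KCS5* (CARHR026010), such a synthase, was at 43.2 to 70.0 CPM in Dex (median 53.1) and 14.9 to 50.9 CPM in Mock (median 36.9). Of the Mock libraries only replicate 3 at 6 h, at 50.9 CPM, reached into the Dex range. *KCS12* (CARHR121740), of the same family, was at 38.2 to 68.8 CPM in Dex (median 43.0) and 15.4 to 45.6 CPM in Mock (median 31.6). A lipid transfer protein gene (CARHR114550), of a family that carries lipids across the wall, was at 36.8 to 78.6 CPM in Dex (median 52.8) and 12.2 to 47.7 CPM in Mock (median 29.7).

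A GDSL esterase/lipase (CARHR236570), of a family that includes cutin-forming enzymes, was 1 of the 6 members above 2-fold, at 2.31 in the average. It held 52.1, 42.02 and 50.7 CPM in Dex at 2 h against 16.9, 35.4 and 27.6 CPM in Mock. At 6 h the Dex values were 79.8, 21.8 and 29.7 CPM and the Mock values 3.11, 19.4 and 26.7 CPM. Its groups were thus apart at 2 h and overlapped at 6 h, where replicate 1 alone differed widely. A further GDSL gene (CARHR102500) was at 3.78 to 9.12 CPM in Dex and 1.61 to 4.67 CPM in Mock.

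*FAD4* (CARHR234700), a plastid desaturase acting on phosphatidylglycerol, changed with time. In Dex it was at 3.53, 3.46 and 2.79 CPM at 2 h, 1.71, 1.79 and 1.02 CPM at 4 h and 7.43, 5.22 and 6.53 CPM at 8 h. In Mock it was at 2.31, 1.94 and 2.35 CPM at 2 h, 0.739, 1.75 and 1.27 CPM at 4 h and 3.29, 2.39 and 2.46 CPM at 8 h. Within Dex it fell from 2 h to 4 h (-1.13 ± 0.25 SE, adjusted p = 0.0116) and rose from 2 h to 8 h (0.88 ± 0.24 SE, adjusted p = 0.0117), both on the log2 scale by edgeR. Neither passed without replicate 2 or 3, the fall also not without Dex replicate 3 at 4 h and the rise not without Dex replicate 3 at 2 h. In Mock its change from 2 h to 4 h was -0.69 ± 0.26 SE and did not pass (adjusted p = 0.0666). The remaining members of the role, *NPC2* (CARHR119030, a phospholipase C) and *ATECI3* (CARHR220650), had average folds of 1.40 and 1.68. In the role as a whole, 89 paired genes were tested, of which 32 rose and 26 fell in the Dex average, with a median log2 fold change of 0.54 beside 0.04 for all genes. The pairs of 68 of them came only from tables of differentially expressed genes, so this split is no independent evidence.

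The flavonoid list has 1 member, *UGT78D2*, and *TT6*, which that list does not hold, is described with it because of its product. *TT6* (CARHR160820) encodes flavanone 3-hydroxylase, an early enzyme of flavonoid synthesis, and *UGT78D2* (CARHR196160) a glucosyltransferase that acts on flavonols and anthocyanins. At 2 h the ranges of *TT6* overlapped, at 23.1, 24.6 and 23.96 CPM in Dex and 25.1, 23.9 and 24.8 CPM in Mock. In Mock it held 11.5, 14.3 and 12.0 CPM at 6 h and 23.8, 21.7 and 24.8 CPM at 8 h, and the falls from 2 h to 4 h (-0.75 ± 0.18 SE, adjusted p = 0.00693) and to 6 h (-0.89 ± 0.18 SE, adjusted p = 0.00155) passed the test on the log2 scale by edgeR. In Dex it held 27.2, 17.2 and 19.7 CPM at 6 h and 47.8, 37.1 and 42.6 CPM at 8 h. The rise in Dex from 2 h to 8 h passed (0.73 ± 0.17 SE, adjusted p = 0.00502 by edgeR), and at 8 h every Dex library lay above every Mock library. These 3 calls were lost without replicate 2 or 3, and the fall to 4 h also without replicate 1 or Mock replicate 1 at 4 h. The Dex effect at 8 h exceeded that at 2 h by 0.86 ± 0.24 SE and did not pass (adjusted p = 1.00 by edgeR over all genes).

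*UGT78D2* rose in Dex from 3.53, 5.29 and 4.75 CPM at 2 h to 15.5, 9.37 and 13.2 CPM at 8 h (log2 fold change 1.38 ± 0.26 SE, adjusted p = 8.83e-04 by edgeR). In Mock it was at 3.44, 2.54 and 3.35 CPM at 2 h and 6.95, 5.88 and 5.33 CPM at 8 h. The groups did not overlap at 2, 4 or 8 h and overlapped at 6 h. The rise in Dex did not pass without replicate 3. Of the 22 paired genes of phenylpropanoid and flavonoid metabolism, 11 rose and 5 fell in the Dex average, again with 14 pairs known only from tables of differentially expressed genes.

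**Figure D4:**
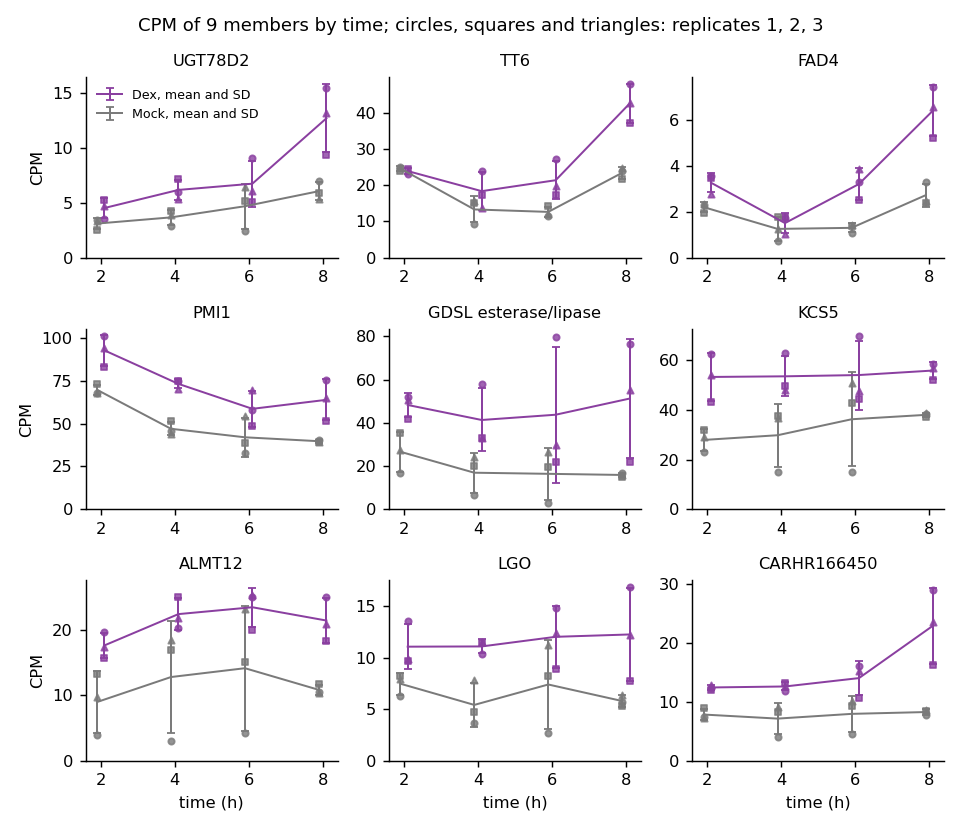
CPM of 9 members by time, with replicates as points and mean ± SD (n = 3) as lines and bars; each vertical axis starts at 0. *UGT78D2*, *TT6*, *FAD4* and CARHR166450 reach their highest Dex level at 8 h, *PMI1* is highest at 2 h in both treatments, and the Mock bars of *KCS5*, *ALMT12* and the GDSL gene are wide at 4 and 6 h, where replicate 1 is low.

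Wall genes among the members covered structural proteins and pectin. *GRP5* (CARHR096220), a glycine-rich protein, was at 18.8 to 53.5 CPM in Dex (median 23.9) and 4.24 to 27.5 CPM in Mock (median 13.2). *ATPRP2* (CARHR111970), a proline-rich protein, was at 25.6, 19.8 and 22.1 CPM in Dex at 2 h and 17.0, 14.7 and 14.3 CPM at 8 h. It fell in Dex over that interval (log2 fold change -0.64 ± 0.17 SE, adjusted p = 0.0114 by edgeR), and its Mock values were 13.8, 19.4 and 17.3 CPM at 2 h and 9.35, 7.55 and 7.95 CPM at 8 h. The fall did not pass without replicate 2 or 3, nor without Dex replicate 1 at 2 h or Dex replicate 3 at 8 h.

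A gene of the invertase and pectin methylesterase inhibitor family (CARHR023660), whose products limit the activity of wall enzymes, fell after 2 h in both treatments. From 2 h to 4 h it fell by 1.14 ± 0.29 SE in Mock (adjusted p = 0.0124) and by 1.05 ± 0.28 SE in Dex (adjusted p = 0.0288) on the log2 scale by edgeR. Its Mock values were 3.44, 4.28 and 3.90 CPM at 2 h and 1.32, 1.38 and 2.01 CPM at 4 h. Its Dex values were 8.23, 4.62 and 6.80 CPM at 2 h and 3.16, 3.19 and 3.11 CPM at 4 h. Both falls also passed at 6 h against 2 h (-0.88 ± 0.29 SE in Mock, adjusted p = 0.0376, and -0.93 ± 0.28 SE in Dex, adjusted p = 0.0293). None of the 4 falls passed without replicate 2 or 3, and apart from the Mock fall at 4 h they were also lost without replicate 1 and without several single libraries. A putative pectate lyase (CARHR277030), which cuts pectin, was at 12.0 to 36.2 CPM in Dex (median 20.9) and 1.77 to 19.5 CPM in Mock (median 10.4), and its replicate differences were 2.36, 0.29 and 0.58. Expansins and xyloglucan enzymes, which loosen walls, had 0 members, although 13 of 24 such genes rose and 3 fell in the Dex average. Of 51 structural wall protein genes 25 rose and 13 fell, and of 46 pectin and cellulose genes 22 rose and 11 fell. Most of these pairs came from tables made from the same libraries.

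Few members were described as growth or signalling genes. The 10 members with a counterpart locus but no description are in no role list, nor are the 89 with an identifier only. The number of such genes in the whole set is therefore not known. *LGO* (CARHR085040), an inhibitor of cyclin-dependent kinases that makes cells stop dividing and replicate their DNA instead, was at 7.72 to 16.8 CPM in Dex (median 11.5) and 2.73 to 11.2 CPM in Mock (median 6.33), and all 12 differences were above 0. A SAUR-like gene (CARHR112080), of a family that answers auxin early, was at 13.5 to 29.5 CPM in Dex (median 19.0) and 5.42 to 22.8 CPM in Mock (median 10.1). A leucine-rich repeat kinase gene (CARHR130860), of a family that holds many receptors, was at 12.8 to 29.2 CPM in Dex and 4.50 to 19.5 CPM in Mock. The zinc finger gene *CONSTANS-LIKE 6* (CARHR061300), which the list of transcription factors holds as its only member, was at 54.2 to 132 CPM in Dex (median 100.2) and 21.8 to 103 CPM in Mock (median 51.2). A histone H3 gene, *HTR11* (CARHR279310), had 9 of 12 differences above 0, with 10.1 to 32.8 CPM in Dex and 3.91 to 27.97 CPM in Mock. Transcription factors as a list went the other way, with 96 of 159 lower and 27 higher in the Dex average, as did kinases with 72 of 107 lower and 16 higher, beside 1929 lower and 1033 higher among all 21689 genes tested. The pairs of 137 of these transcription factors and 76 of these kinases came only from tables of differentially expressed genes, so these splits are no independent evidence.

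Transport and metabolism genes included the member with the most reads. *ATPPC2* (CARHR137740), a phosphoenolpyruvate carboxylase that supplies organic acids, was at 396 to 946 CPM in Dex (median 603) and 184 to 613 CPM in Mock (median 340). CARHR023760 was at 363 to 619 CPM in Dex against 200 to 511 CPM in Mock and CARHR089360 at 344 to 553 CPM against 215 to 444 CPM, and neither has a counterpart. *ALMT12* (CARHR224710), an anion channel of guard cells that helps stomata close, was at 15.7 to 25.3 CPM in Dex (median 20.6) and 2.96 to 23.1 CPM in Mock (median 11.1), and all 12 differences were above 0. *CLC-B* (CARHR148370), of a family of anion transporters, was at 39.4 to 101 CPM in Dex and 16.7 to 60.0 CPM in Mock. *ATCLH1* (CARHR020190), a chlorophyllase, was at 31.0 to 60.7 CPM in Dex and 15.8 to 42.4 CPM in Mock.

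A GMC oxidoreductase gene (CARHR264890) stood next after CARHR069370 in rank, with 13.3 to 23.3 CPM in Dex (median 19.9) and 2.31 to 13.8 CPM in Mock (median 10.99), and its groups did not overlap at any of the 4 times. A subtilase gene (CARHR176340), of a family of secreted proteases, was at 7.72 to 16.4 CPM in Dex and 1.02 to 12.3 CPM in Mock. An AAA domain gene (CARHR238160) was at 2.16 to 5.90 CPM in Dex and 0.483 to 4.89 CPM in Mock. Genes for uncharacterized proteins, CARHR210120 and CARHR080410, had average folds of 1.78 and 2.19. *CLC-B* is named here in addition to the rule for named genes, as are *KCS5*, *KCS12*, *NPC2*, *ATECI3*, CARHR114550 and CARHR102500 to complete their role.

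*PMI1* (CARHR035190), needed for plastids to move with light, declined with time in both treatments. Its Dex values were 101, 83.1 and 94.2 CPM at 2 h and 75.4, 51.5 and 64.8 CPM at 8 h. Its Mock values were 68.1, 73.1 and 68.2 CPM at 2 h and 32.7, 38.7 and 54.7 CPM at 6 h. The fall from 2 h to 6 h was -0.68 ± 0.14 SE in Dex (adjusted p = 0.00315) and -0.68 ± 0.14 SE in Mock (adjusted p = 0.00272), and that from 2 h to 8 h in Dex was -0.64 ± 0.14 SE (adjusted p = 0.00343), all on the log2 scale by edgeR. All 3 falls were lost without replicate 2, the Mock fall also without replicate 1, and the Dex falls without the replicate 2 library at 6 h or 8 h. *PMI1*, *KCS12*, *NPC2* and the lipid transfer protein gene are the 4 members (2.72%) on the list of genes that ChCUC1 bound both in chromatin and in purified DNA, beside 1.08% of all genes tested, and none of the targets the study selected is a member.

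Changes with time inside each treatment were not used by the rule, apart from the limit on Mock at 8 h against 2 h. From 2 h to 4 h in Mock, 7 members rose (4.76%, beside 6.29% of all genes) and 3 fell (2.04%, beside 8.44%). From 2 h to 6 h in Mock, 6 rose (4.08%, beside 6.24%) and 5 fell (3.4%, beside 9.06%). In Dex from 2 h to 4 h, 5 rose (3.4%, beside 1.36%) and 2 fell (1.36%, beside 4.19%). In Dex from 2 h to 6 h, 6 rose (4.08%, beside 4.41%) and 3 fell (2.04%, beside 7.37%). In Dex from 2 h to 8 h, 8 rose (5.44%, beside 6.67%) and 15 fell (10.2%, beside 10.7%). No difference between the members' shares and those of all genes was tested, and the limit on Mock at 8 h against 2 h removed genes that move with time from the members but not from all genes. Without replicate 2 the counts in either direction were 1, 0, 0, 2 and 3 in this order, and without replicate 3 they were 0, 3, 0, 1 and 4. Of the 60 calls over the 5 contrasts, 54 did not pass without replicate 2, 54 without replicate 3 and 12 without replicate 1, and none changed direction. The matching losses over all genes are not given here. A general loss of calls and one particular to the members therefore cannot be told apart. The 5 contrasts together called 34 members, of which 10 have a counterpart.

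The largest rises with time were in members without a counterpart, singled out after their values were seen. CARHR187090 held 10.1, 16.4 and 15.0 CPM in Mock at 2 h and 19.8, 44.2 and 56.9 CPM at 6 h (log2 fold change 1.59 ± 0.29 SE, adjusted p = 7.78e-04 by edgeR). In Dex it held 21.3, 21.0 and 18.0 CPM at 2 h and 76.4, 44.5 and 69.4 CPM at 6 h (1.63 ± 0.29 SE, adjusted p = 7.77e-04 by edgeR). CARHR131520 and CARHR233650 rose with it at 4 h and 6 h in both treatments, and CARHR188930 at 4 h in both. CARHR008880 (counterpart AT1G08980) rose in Mock by 0.71 ± 0.18 SE at 4 h (adjusted p = 0.0106) and by 0.76 ± 0.18 SE at 6 h (adjusted p = 0.00552 by edgeR), and in Dex its 0.50 ± 0.18 SE at 6 h did not pass (adjusted p = 0.0679). The falls in Mock at 4 h outside the rule were those of CARHR023760, and at 6 h those of CARHR023760 and CARHR065520. In Dex, CARHR226590 also rose at 4 h, and CARHR071890 and CARHR144430 (AT2G01870, uncharacterized) rose at 6 h and 8 h. CARHR099840 (AT3G23840) fell at 8 h by 0.77 ± 0.19 SE (adjusted p = 0.00740 by edgeR). CARHR204770 fell at 6 h and at 8 h (log2 fold change -1.05 ± 0.12 SE at 8 h, adjusted p = 7.44e-06 by edgeR). CARHR263350 fell at 8 h (-0.99 ± 0.17 SE, adjusted p = 3.93e-04 by edgeR). The 8 h falls of CARHR204770 and CARHR263350 passed under each of the 31 alternatives run. Every other call in this paragraph was lost under at least 1 of them. The rise of CARHR233650 in Dex at 4 h passed under 16 and that of CARHR226590 in Dex at 4 h under 20. The fall of CARHR065520 in Mock at 6 h passed under 18.

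Whether the Dex effect itself changed with time was the remaining test. The average over times did not decide it. The limit on Mock at 8 h against 2 h did constrain part of the difference between 8 h and 2 h, for members but not for all genes. The difference of the Dex effect at 8 h and 2 h passed for 0 members and 0 of 21689 genes by edgeR (0%), with 5 members and 4.32% of all genes at an unadjusted p under 0.05, and DESeq2 called 0 members and 2 genes. A count of 0 does not show that the effect was equal at both times. The members' median of this difference was 0.19 on the log2 scale, with 112 of 147 (76.2%) above 0, beside a median of 0.06 and 57.4% over all genes. The joint test over the 4 times passed for 0 members by edgeR (0% of all genes) and by DESeq2, with 3 and 4 members at an unadjusted p under 0.05 (by edgeR 2.16% of all genes). By the mean difference of log2(CPM+1), 8 members were largest at 2 h, 64 at 4 h, 21 at 6 h and 54 at 8 h. The same split over all genes was not made. On this scale of library totals the median ranked gene itself differed by 0.04, 0.21, 0.13 and 0.09 at these times. The part of the scale in these counts was not tested. In the fit, which uses TMM scaling, the members' median log2 difference at 8 h was 0.65, against 0.48 at 2 h, 0.52 at 4 h and 0.54 at 6 h.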

How the data were processed

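Poly(A) RNA of 24 pools was sequenced from a directional kit. The authors aligned reads with STAR 2.4.2a and counted them per gene with HTSeq 0.5.4p1, and they tested with DESeq, per the labels. The deposited files hold whole-number counts per gene, not normalized, for 29458 genes. HTSeq summary lines were kept out (reads without a gene 5.65% to 15.8%, ambiguous reads 0.192% to 0.370%). No source used here names the genome build, the annotation or whether counting used strand, so antisense partners cannot be separated, and no sequence or coordinate is printed.

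CPM are counts over the library's gene counts. Tests used edgeR 4.0.16 (glmQLFit, robust, and glmQLFTest, two-sided) in R 4.3.3 on all 24 libraries, 1 coefficient per group, TMM scaling and filterByExpr with a minimum count of 10, which left 21689 genes. P-values were adjusted by Benjamini-Hochberg over all of them, and calls need an adjusted p under 0.05 and a fold over 1.5. Errors are SE for log2 fold changes and SD for CPM. CPM are not corrected for gene length, so levels of different genes are not compared.

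Members and lists were chosen with earlier results of these data known. Names come from 4021 pairs of identifiers in the study's supplementary tables, 1846 of them only from tables of differentially expressed genes. Named genes are the 12 named or described members with the highest smallest value, 2 per role list, 3 called members with a counterpart per direction in each time contrast, the 3 with the most reads, those at the threshold and the first 5. Alternatives were other size factors, no filter, DESeq2 1.42.0, a replicate block, leaving out replicates or libraries, and changes to the rule. On simulated counts, drawn independently for each library, calls missed most changes of 1.5-fold, which lie at the fold limit itself. In each contrast tried they also missed most changes of 2-fold, so a gene not called may still have changed.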

Additional observations from a re-analysis of the deposited data

Results flagged for a closer look

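CARHR207980, a member paired with an uncharacterized protein (AT5G05250), had Dex minus Mock differences of opposite sign at 2 h and 4 h. It was singled out for this after the values were seen. At 2 h its CPM was lower in Dex than in Mock in all 3 replicates (17.2, 19.9 and 15.9 against 19.3, 20.6 and 18.9), a mean difference of -0.15 on the log2(CPM+1) scale. At 4 h it was higher in all 3 (30.8, 24.7 and 23.7 against 13.4, 16.1 and 19.7). The difference between the times was not tested beyond the fit over all genes, in which no member passed. At 2 h and at 4 h alone edgeR called no member either.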

How the results depend on the processing

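The number of members called depended on the replicates kept. Without replicate 1, 2 or 3 in turn, the count in the Dex average ran from 0 to 76 (62 with all), that in Mock at 4 h from 0 to 19 (10), in Mock at 6 h from 0 to 25 (11), in Dex at 4 h from 0 to 10 (7), in Dex at 6 h from 1 to 13 (9) and in Dex at 8 h from 3 to 29 (23). Leaving out single libraries gave 50 to 85, 6 to 15, 7 to 24, 3 to 10, 4 to 11 and 15 to 26 in the same order. Counts moved by over 1.5 times without these libraries: in Mock at 4 h, 6 without Mock replicate 2 or 3 at 2 h; in Mock at 6 h, 7 without Mock replicate 2 at 2 h, 24 without Mock replicate 1 at 6 h and 17 without replicate 3 at 6 h; in Dex at 4 h, 3 without Dex replicate 1 or 3 at 2 h or replicate 2 or 3 at 4 h; in Dex at 6 h, 4 without Dex replicate 3 at 2 h; and in Dex at 8 h, 15 without Dex replicate 3 at 8 h. Tests of the Dex effect between times gave 0 members under every alternative run. Without the fold limit 143 members were called in the average, the contrast the rule used, so nothing is read from this count. The share of all genes called without that limit is not given here. DESeq2 called 23 members summed over the 4 single times, where edgeR called 0. The replicate block gave 67 in the average and 11, 16, 8, 10 and 24 in the time contrasts, and replicate numbers did not pair the libraries (2 of 12 correlations above 0.1).

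The set itself depended on the rule: leaving out 2, 4, 6 or 8 h kept 93, 81, 96 and 92 of 147 members, dropping the limit on Mock at 8 h against 2 h kept 99, TMM library sizes 114, a mean of at least 5 CPM 125, no minimum mean 134 and a pseudocount of 0.5 kept 137. Of the 60 calls with time, 48 remained without replicate 1, 6 without replicate 2 and 6 without replicate 3. The cause of these changes was not tested, and for the contrasts with time the matching counts over all genes are not given here.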
